A study of Mus musculus with 36 samples.

Results

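The genes described here encode 8 basic leucine zipper (bZIP) transcription factors of the integrated stress response: Atf4, Ddit3 (which encodes CHOP), Atf3, Cebpb, Cebpg, Jdp2, Atf5 and Cebpd. They were taken by symbol from a table of 54735 gene symbols, and all 8 were present. Their mRNA was measured by sequencing of total RNA from mouse embryonic fibroblasts, connective tissue cells cultured from mouse embryos, grown in RPMI medium with serum. There was a line deleted for the kinase GCN2, a line deleted for the kinase PERK, and a wild-type (WT) line. Each line was starved in RPMI SILAC medium lacking lysine and arginine, exposed to 200 nM thapsigargin, given the solvent DMSO, or left untreated, and both stresses lasted 6 h. The 12 groups held 3 libraries each, 36 in all, which the labels call technical replicates. The labels name 1 line per genotype, so genotype and line cannot be told apart, and p-values measure only the spread between technical replicates. They do not say which part of either kinase gene was removed. They also name no control for either stress: starved cells were set against untreated cells, so a change of medium is part of that comparison, and thapsigargin was set against DMSO.

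Amino acid shortage activates GCN2 through uncharged tRNA, and disturbance of the endoplasmic reticulum (ER), such as the block of its calcium pump by thapsigargin, activates PERK. Both kinases phosphorylate the translation factor eIF2alpha, which slows protein synthesis in general and raises translation of Atf4 mRNA through its upstream reading frames. ATF4 pairs with C/EBP factors on C/EBP-ATF response elements and activates stress genes, among them those of other bZIP factors. The values below are mRNA levels in TPM, a transcript abundance scaled for transcript length and to a fixed total per library, and they hold no measure of ATF4 protein.

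The marker and library checks were as follows. Of 12 fibroblast markers, 10 had a mean of at least 1 TPM in some group. The summed level of the 12 ran from 5569 to 7012 TPM in the GCN2-deletion line. It ran from 3050 to 3553 TPM in the PERK-deletion line and from 3701 to 5176 TPM in WT. Its part in the results below was not tested. Over the 36 libraries, Vim ran from 1394 to 3184 TPM and Fn1 from 535 to 1809 TPM. Col1a1 ran from 8.94 to 1589 TPM, Col3a1 from 0.203 to 270 TPM and Pdgfra from 0.206 to 33.1 TPM. The lowest values of Lum, Dcn and Fap were 0. Summed markers of epithelium, leukocytes, endothelium, skeletal muscle and adipocytes stayed at or under 13.3 TPM in every library, and Lep was at 0 in all. Neuron and glia markers reached 44.8 TPM through Tubb3, while Olig2 was at 0 in all libraries. Eif2ak4, the GCN2 gene, lay between 4.54 and 7.89 TPM in libraries of the GCN2-deletion line and differed by -2.03 on the log2 scale between untreated cells of that line and WT (limma adjusted p = 2.11e-13). Eif2ak3, the PERK gene, was at 4.22 ± 0.353 TPM in untreated PERK-deletion cells and 6.99 ± 0.878 TPM in untreated WT cells (SD, n = 3 each), a log2 difference of -0.61 (adjusted p = 6.1e-06). Eif2ak3 transcript thus remained in the PERK-deletion line, where it rose by 0.80 with thapsigargin (adjusted p = 9.69e-07). The first starved library of the PERK-deletion line had a mitochondrial share of 4.33% of TPM, against 7.80% and 7.97% in its group. The first untreated library of WT held 9.49%, against 7.26% and 7.54% in its group, and lay farthest of all 36 libraries from the mean of its group (root mean square deviation 0.428 in log2(TPM + 1) over genes). Among the tests of the 8 genes, leaving it out changed 1 call, that of Cebpb in the starvation difference between the PERK-deletion line and WT.

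In the GENCODE M21 annotation of GRCm38 the 8 genes lie on 7 chromosomes. Atf4 is at chr15:80255184-80257541 on the plus strand, Atf3 at chr1:191170296-191218039 on the minus strand and Cebpb at chr2:167688915-167690418 on the plus strand. Atf5 (chr7:44812256-44816658) and Cebpg (chr7:35046422-35056573) are both on the minus strand of chromosome 7. Cebpd is at chr16:15887286-15891031 and Jdp2 at chr12:85599027-85639878, both on the plus strand. Ddit3 has a pair of overlapping protein-coding records on the plus strand, chr10:127290774-127296288 and chr10:127290829-127293753, and which of them the deposited Ddit3 value covers is not known. Exons of Cebpd share 562 bases with Spidr and those of Cebpb share 312 bases with Tmem189, each on the opposite strand. Smaller overlaps on the opposite strand include those of Jdp2 with Gm47863 (165 bases), Atf5 with Nup62 (82 bases) and Ddit3 with Mars (68 bases). Cebpg shares 73 bases with Gm44836 on its own strand. The strand setting of the quantification is not given in the sources used here, so Cebpd and Cebpb, and to a lesser degree these genes, are uncertain to that extent.

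Promoter windows, from 250 bases before to 50 bases after a transcript start, were available in RefSeq (GRCm38.p6) for 7 of the 8 genes, in 10 windows. They were searched on both strands for the C/EBP-ATF response element TGATGNAA, the full cAMP response element TGACGTCA, the C/EBP palindrome TTGCGCAA, the AP-1 element TGANTCA and, by name, the ER stress element. Among 32851 windows of all genes, 3.97% held TGATGNAA, 1.79% TGACGTCA, 0.183% TTGCGCAA, 7.81% TGANTCA and 0.119% the ER stress element. Windows of 3 genes, Atf3, Ddit3 and Jdp2, held a match, and these are printed because they hold it. A link between a match and the levels below was not tested. Capitals mark the match, and each sequence runs 5′ to 3′ on the gene's own strand. The Atf3 window (chr1:191183284-191183583, minus strand) holds the C/EBP-ATF response element read from the opposite strand, beginning at base -110 from the start. The Ddit3 window (chr10:127290543-127290842, plus strand) holds an AP-1 element at -242. The second of the Jdp2 windows (chr12:85599166-85599465, plus strand) holds the C/EBP-ATF response element at -33.
Atf3: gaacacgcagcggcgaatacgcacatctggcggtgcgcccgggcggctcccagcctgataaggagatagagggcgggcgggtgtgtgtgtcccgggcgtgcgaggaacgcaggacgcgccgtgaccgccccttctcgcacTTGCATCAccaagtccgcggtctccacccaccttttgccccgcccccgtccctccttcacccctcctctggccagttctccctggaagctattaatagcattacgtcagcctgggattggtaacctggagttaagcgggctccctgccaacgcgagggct
Ddit3: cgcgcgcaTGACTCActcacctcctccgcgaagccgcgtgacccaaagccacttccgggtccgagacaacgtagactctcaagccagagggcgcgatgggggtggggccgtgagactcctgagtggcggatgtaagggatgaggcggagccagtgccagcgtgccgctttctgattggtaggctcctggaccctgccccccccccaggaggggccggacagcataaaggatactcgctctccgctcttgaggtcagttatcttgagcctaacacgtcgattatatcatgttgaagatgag
Jdp2: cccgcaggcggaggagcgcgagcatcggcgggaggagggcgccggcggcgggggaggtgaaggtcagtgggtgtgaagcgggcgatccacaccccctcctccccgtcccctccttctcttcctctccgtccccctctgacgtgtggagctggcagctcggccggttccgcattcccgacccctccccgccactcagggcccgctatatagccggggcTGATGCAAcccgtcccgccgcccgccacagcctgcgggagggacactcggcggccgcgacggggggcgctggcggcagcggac
No match was found in the windows of Atf4, Atf5, Cebpb or Cebpg, which says only that these letters are not in these windows. A match is a description of sequence and not a measured binding site.

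Starvation of WT cells raised 6 of the 8 genes and lowered 1. A gene was called where its adjusted p was under 0.05 in limma, fitted on log2(TPM + 1) over the 16083 genes that reached 1 TPM or more in no fewer than 3 libraries. All 8 genes passed that filter. By that rule 29.8% of all genes tested were called in starved against untreated WT cells, 12.5% higher and 17.3% lower. The median log2 change of the 8 genes was 1.02, against -0.05 for all genes tested. In these bulk samples, fewer cells of a type and less RNA per cell cannot be told apart.

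Atf4, the central activator, had 1074, 1083 and 1079 TPM in starved WT cells, against 535, 562 and 579 TPM in untreated WT cells. Every starved library lay above every untreated one, and the log2 change was 0.95 (SE 0.0481, adjusted p = 5.69e-15). Ddit3 encodes CHOP, a factor known for promoting cell death under prolonged ER stress. It stood at 229.5, 264 and 263 TPM in starved WT cells, against 65.2, 63.1 and 67.2 TPM in untreated ones, a log2 change of 1.93 (SE 0.0631, adjusted p = 5.37e-19). Atf3, a stress-inducible factor that can repress its targets, changed most of the 8 in this comparison. Its levels were 59.4, 70.2 and 73.1 TPM in starved WT cells and 6.76, 10.0 and 9.40 TPM in untreated WT cells, a log2 change of 2.83 (SE 0.145, adjusted p = 7.15e-15).

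Both C/EBP partners with higher expression also rose in starved WT cells. CEBPG is a short C/EBP protein that pairs with ATF4. Cebpg had 61.8, 65.1 and 64.5 TPM in starved WT cells, against 26.9, 24.8 and 22.0 TPM in untreated ones (log2 change 1.35, SE 0.108, adjusted p = 9.67e-11). Cebpb, which encodes activating and inhibitory isoforms, had 36.3, 41.9 and 43.2 TPM against 24.3, 22.3 and 26.4 TPM in the same comparison (0.71, SE 0.131, adjusted p = 0.000106). Jdp2, whose product dimerizes with Jun and represses AP-1 sites, averaged 87.5 ± 5.13 TPM in starved WT cells and 40.7 ± 2.41 TPM in untreated WT cells (SD, n = 3 each). Its log2 change was 1.09 (SE 0.0669, adjusted p = 3.3e-13), and for all of these genes the groups were separate.

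Atf5 and Cebpd stood apart from the rest. ATF5 is related to ATF4 and has upstream reading frames of its own. Atf5 had 99.96, 106 and 103 TPM in starved WT cells and 87.6, 97.2 and 104 TPM in untreated ones; the libraries overlapped, and the log2 change of 0.10 did not pass (95% interval -0.04 to 0.24, adjusted p = 0.296). Cebpd, a C/EBP factor of inflammation and early fat cell differentiation, was at low levels throughout, with at least 1 TPM in 25 of 36 libraries. It fell to 1.92, 2.00 and 1.45 TPM in starved WT cells, against 3.05, 3.16 and 4.14 TPM in untreated WT cells, a log2 change of -0.67 (SE 0.13, adjusted p = 0.0002).

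**Figure D1:**
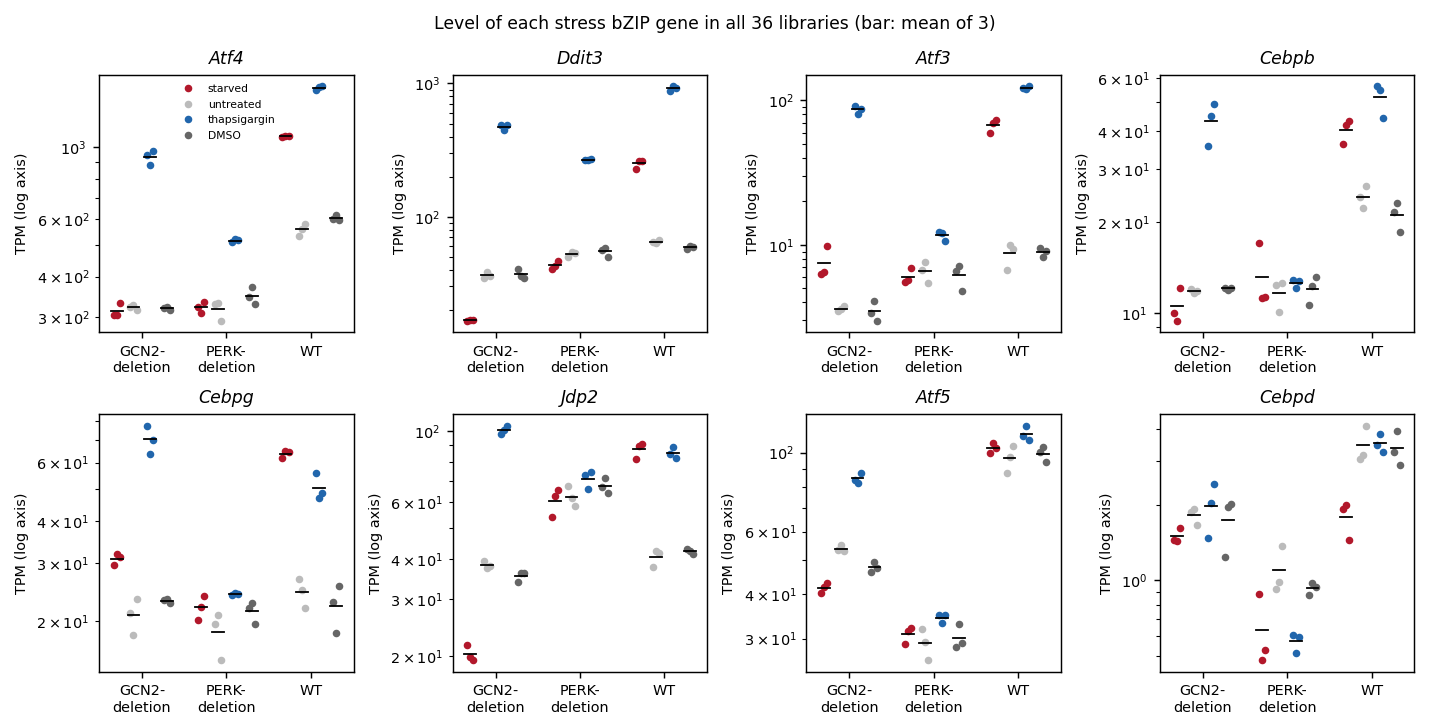
TPM of each gene in all 36 libraries on log axes, grouped by line, with starved, untreated, thapsigargin and DMSO libraries from left to right; the bar is the mean of 3 libraries. Ddit3 in starved cells sits near 16.7 TPM in the GCN2-deletion line, 43.3 TPM in the PERK-deletion line and 252 TPM in WT.

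In the starved GCN2-deletion line 2 of the 8 genes rose and 3 fell, where 23.8% of all genes tested were called, 11.7% higher and 12.1% lower. Atf4 had 305, 305 and 332 TPM in starved cells of this line, against 323, 326 and 315 TPM untreated; the libraries overlapped and the log2 change was -0.04 (95% interval -0.13 to 0.06, adjusted p = 0.676). Ddit3 fell to 16.6, 16.8 and 16.8 TPM in the starved cells, against 34.9, 38.7 and 35.8 TPM in untreated ones (-1.08, SE 0.0631, adjusted p = 4.29e-13). This was the opposite direction to WT and the lowest Ddit3 level of all 12 groups. Jdp2 likewise fell to 21.7, 19.8 and 19.4 TPM when starved, against 39.4, 37.6 and 38.1 TPM untreated (-0.89, SE 0.0669, adjusted p = 8.25e-11).

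Atf5 was also lower in starved GCN2-deletion cells, at 41.8 ± 1.36 TPM against 53.6 ± 1.08 TPM untreated (SD, n = 3 each; log2 change -0.35, adjusted p = 0.000212). Set against DMSO in place of untreated cells, that Atf5 change was -0.18 and did not pass (adjusted p = 0.0524). Atf3 and Cebpg were the members that rose. Atf3 had 6.28, 6.49 and 9.82 TPM in starved cells and 3.49, 3.61 and 3.75 TPM in untreated cells of the line (0.86, SE 0.145, adjusted p = 5.74e-05), below its starved WT level. Cebpg averaged 30.8 ± 1.22 TPM starved and 20.9 ± 2.62 TPM untreated (SD, n = 3 each; 0.55, adjusted p = 0.000403). Cebpb (-0.16, adjusted p = 0.425) and Cebpd (-0.18, adjusted p = 0.381) did not pass.

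The starved PERK-deletion line showed little movement of these genes: none rose by limma's adjusted p and Ddit3 fell, where 12% of all genes tested were called (6.32% lower). Ddit3 had 40.7, 42.4 and 46.8 TPM in starved cells and 50.3, 54.4 and 53.0 TPM in untreated ones, separate groups with a log2 change of -0.27 (SE 0.0631, adjusted p = 0.00366). Fitted on these groups alone, it did not pass (adjusted p = 0.176). Atf4 stood at 321, 308 and 335 TPM starved, against 329, 331 and 293 TPM untreated, with a log2 change of 0.02 (95% interval -0.08 to 0.12). The 95% interval of Atf3 ran from -0.40 to 0.19 and that of Jdp2 from -0.18 to 0.09. Cebpd missed the threshold (-0.36, adjusted p = 0.0706), though every starved library lay below every untreated one. Its means were 0.631 TPM starved and 1.09 TPM untreated, a ratio of 0.577, against a ratio of 0.519 in WT. The log2(TPM + 1) scale understates changes at such low levels. Without starved replicate 1 Cebpd passed, at -0.47 (adjusted p = 0.0308), which makes 2 of the 8 called. At an unadjusted p under 0.05, 1 gene (Cebpg) was higher. With median-of-ratios rescaling Cebpg also passed, at 0.26 (adjusted p = 0.0148).

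The starvation effect was lower than in WT for 7 of the 8 genes in the GCN2-deletion line and for 6 of 8 in the PERK-deletion line. Over all genes tested, 7.71% of differences were called for the GCN2-deletion line (4.07% lower) and 10.8% for the PERK-deletion line (5.28% lower). Both differences share the WT libraries. For Ddit3 the difference from WT was -3.01 in GCN2-deletion cells (SE 0.0893, adjusted p = 2.77e-19) and -2.21 in PERK-deletion cells (adjusted p = 4.48e-16). Atf3 differed by -1.97 (SE 0.205, adjusted p = 5.9e-08) and -2.93 (adjusted p = 3.83e-11) in the same lines. For Atf4 the differences were -0.98 (adjusted p = 1.67e-11) and -0.93 (adjusted p = 9.79e-11), close to the whole WT response of 0.95.

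Jdp2 differed from WT in its starvation effect by -1.97 in GCN2-deletion cells and -1.13 in PERK-deletion cells, and Cebpg by -0.80 and -1.11. Cebpb differed by -0.87 (adjusted p = 0.00207) in the GCN2-deletion line. In the PERK-deletion line its difference of -0.57 passed narrowly (adjusted p = 0.0466) and was lost when any of 8 libraries was left out, at values between -0.47 and -0.57 and adjusted p up to 0.138. They were starved replicates 2 and 3 and untreated replicates 1 and 3 of the PERK-deletion line, and starved replicates 2 and 3 and untreated replicates 1 and 2 of WT. Starved replicate 1 of the PERK-deletion line held 17.0 TPM of Cebpb, and replicates 2 and 3 held 11.2 and 11.4 TPM. Atf5 differed by -0.45 (adjusted p = 0.00158) in the GCN2-deletion line, a call lost against DMSO (-0.24, adjusted p = 0.15), and by -0.01 in the PERK-deletion line.

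Between the deletion lines themselves, the starvation effect differed for 4 of the 8 genes, where 4.2% of all genes tested were called (2.01% higher and 2.19% lower). Ddit3 (0.81, SE 0.0893, adjusted p = 1.35e-06) and Jdp2 (0.84, SE 0.0947, adjusted p = 1.59e-06) were higher in the PERK-deletion line, both having fallen in starved GCN2-deletion cells. Atf3 was lower in the PERK-deletion line by this measure (-0.97, SE 0.205, adjusted p = 0.00466). Atf5 was higher (0.44, adjusted p = 0.00495), but not against DMSO (0.22, adjusted p = 0.289). The calls of Atf3 (adjusted p = 0.0665) and Atf5 (adjusted p = 0.0768) were lost when the compared groups alone were fitted, leaving 2 of the 8.

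**Figure D2:**
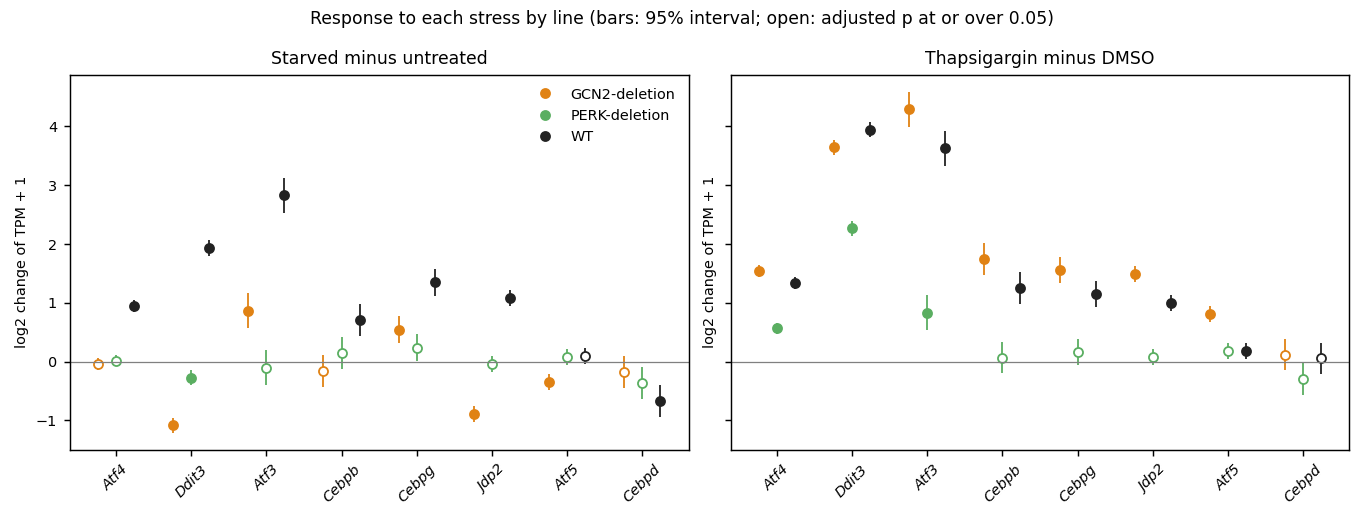
Log2 change of TPM + 1 for starved minus untreated (left) and thapsigargin minus DMSO (right) for each gene, with the GCN2-deletion line, the PERK-deletion line and WT from left to right; bars are 95% intervals and open points have an adjusted p of at least 0.05. Starved GCN2-deletion cells lie below 0 for Ddit3 (-1.08) and Jdp2 (-0.89), while WT lies above 0 for both.

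Thapsigargin raised 7 of the 8 genes in the GCN2-deletion line, 3 in the PERK-deletion line and 7 in WT. The share of all genes tested that were called was 36.6% (25.4% higher) in the GCN2-deletion line, 5.24% (2.49% higher) in the PERK-deletion line and 26.2% (11.4% higher) in WT. Median changes of the 8 genes were 1.55, 0.18 and 1.20 on the log2 scale in those lines, against 0.08, -0.04 and -0.04 for all genes tested. Cebpd passed in none of them, at 0.12, -0.30 and 0.06. In the PERK-deletion line, Cebpd means were 0.570 TPM with thapsigargin and 0.928 TPM with DMSO. Every thapsigargin library there lay below every DMSO library. The log2(TPM + 1) scale understates changes at such low levels.

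Other values moved with thapsigargin in the GCN2-deletion line. The 2 endothelial markers that passed the filter of 5 were higher, Pecam1 by 0.94 (adjusted p = 0.00665) and Kdr by 0.38 (adjusted p = 0.00178), and both effects were higher than in WT. The summed level of the 5 markers was 5.15 to 6.84 TPM with thapsigargin and 2.20 to 3.89 TPM with DMSO, and Cdh5, Tek and Emcn stayed at or under 0.511 TPM in every library. Mitochondrial genes took 5.18%, 4.27% and 5.78% of TPM with thapsigargin, against 7.29%, 6.46% and 6.39% with DMSO, so that the groups were separate. Their part in the result was not tested.

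In thapsigargin-treated GCN2-deletion cells Atf4 reached 946, 879 and 972 TPM, against 320.4, 322 and 315 TPM with DMSO (log2 change 1.54, SE 0.0481, adjusted p = 7.63e-20). In the PERK-deletion line it had 509.7, 521 and 518 TPM with thapsigargin and 346, 371 and 330.3 TPM with DMSO (0.57, SE 0.0481, adjusted p = 1.35e-09). WT cells had 1497, 1533 and 1540 TPM with thapsigargin and 600.5, 617 and 596 TPM with DMSO (1.33, adjusted p = 2.85e-18). Atf4 thus rose in all 3 lines, and thapsigargin-treated PERK-deletion cells still lay below DMSO-treated WT cells. In TPM, the gain over DMSO was 66.7% of the WT gain in the GCN2-deletion line and 18.2% of it in the PERK-deletion line.

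Ddit3 rose with thapsigargin in every line and had the largest change of the 8 genes in the PERK-deletion line and in WT. The GCN2-deletion line had 484, 451 and 489 TPM with thapsigargin and 40.2, 36.2 and 34.7 TPM with DMSO (3.65, SE 0.0631, adjusted p = 1.85e-25). The PERK-deletion line had 269, 267 and 269.8 TPM with thapsigargin and 56.5, 58.7 and 50.1 TPM with DMSO (2.27, adjusted p = 1.35e-20). WT had 881, 953 and 928 TPM with thapsigargin and 57.0, 60.7 and 59.1 TPM with DMSO (3.94, adjusted p = 2.34e-26). With thapsigargin the PERK-deletion line held 268 ± 1.59 TPM of Ddit3, close to the 252 ± 19.5 TPM of starved WT cells (SD, n = 3 each).

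Atf3 also rose with thapsigargin in every line, least in the PERK-deletion line. It reached 91.6, 80.8 and 87.6 TPM in treated GCN2-deletion cells, against 3.36, 4.11 and 2.99 TPM with DMSO (4.29, SE 0.145, adjusted p = 4.83e-19). In the PERK-deletion line it had 12.3, 12.2 and 10.6 TPM with thapsigargin and 6.60, 7.17 and 4.80 TPM with DMSO (0.84, adjusted p = 0.000258). WT cells had 122, 119 and 125 TPM with thapsigargin and 9.50, 8.31 and 9.10 TPM with DMSO (3.63, adjusted p = 2.95e-17). The gain in TPM as deposited in the PERK-deletion line was 4.88% of the WT gain for Atf3, against 24.8% for Ddit3. Both percentages also depend on the scaling of the libraries.

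With thapsigargin, the C/EBP partners and Jdp2 rose in GCN2-deletion cells and in WT cells. Cebpb averaged 43.3 ± 6.77 TPM with thapsigargin and 12.1 ± 0.108 TPM with DMSO in the GCN2-deletion line, a log2 change of 1.75 (adjusted p = 2.03e-11). In WT it averaged 51.8 ± 6.55 TPM and 21.2 ± 2.36 TPM in the same comparison (1.25, adjusted p = 1.69e-08; SD, n = 3 each). Cebpg rose in GCN2-deletion cells by 1.57 (adjusted p = 3.99e-12) and by 1.15 (adjusted p = 2.39e-09) in WT, and Jdp2 by 1.48 (adjusted p = 3.22e-16) and 1.00 (adjusted p = 2.55e-12). In TPM as deposited, Cebpg and Jdp2 peaked in thapsigargin-treated GCN2-deletion cells, at means of 70.5 and 101 TPM. Cebpg there overlapped starved WT cells. Median-of-ratios rescaling divides these GCN2-deletion libraries by 1.12, 1.05 and 1.11. It divides starved WT libraries by 0.959, 0.945 and 0.967 and thapsigargin-treated WT libraries by 0.935, 0.870 and 0.862. Which group is highest for Cebpg and Jdp2 therefore depends on the scaling.

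None of Cebpb, Cebpg and Jdp2 passed in the PERK-deletion line with thapsigargin. Cebpb had 12.9, 12.2 and 12.8 TPM with thapsigargin and 10.7, 12.3 and 13.2 TPM with DMSO, overlapping groups with a 95% interval of -0.20 to 0.34. Cebpg changed by 0.17 (-0.05 to 0.39) and Jdp2 by 0.07 (-0.06 to 0.21). Against untreated cells in place of DMSO, Cebpg (0.37, adjusted p = 0.0264) and Atf5 (0.23, adjusted p = 0.0214) passed as higher and Cebpd (-0.41, adjusted p = 0.0455) as lower, which makes 6 of the 8 called.

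Thapsigargin-treated GCN2-deletion cells had 83.8, 82.1 and 87.7 TPM of Atf5, against 46.0, 49.4 and 47.4 TPM with DMSO (0.82, SE 0.0661, adjusted p = 9.35e-11). The PERK-deletion line had 34.96, 33.1 and 34.98 TPM with thapsigargin and 28.4, 33.0 and 29.3 TPM with DMSO (0.18, adjusted p = 0.128). WT cells had 111, 119 and 109 TPM with thapsigargin and 101, 104 and 93.9 TPM with DMSO. The WT change of 0.18 passed narrowly (adjusted p = 0.0401) and was lost without DMSO replicate 1 or 3 or thapsigargin replicate 1 or 2, at adjusted p up to 0.19.

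For 6 of the 8 genes PERK-deletion cells had a lower thapsigargin effect than WT cells, where 12.9% of all genes tested differed (7.31% lower). The differences were -2.79 for Atf3 (SE 0.205, adjusted p = 8.38e-11), -1.68 for Ddit3 (SE 0.0893, adjusted p = 3.09e-13) and -0.77 for Atf4 (SE 0.0681, adjusted p = 2.85e-09). Cebpb differed by -1.18, Cebpg by -0.98 and Jdp2 by -0.92. For Atf5 the difference was 0.00 with a 95% interval of -0.19 to 0.19.

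Against the GCN2-deletion line, the PERK-deletion line had a lower thapsigargin effect for 7 of the 8 genes, from -0.63 for Atf5 to -3.46 for Atf3, where 23.1% of all genes tested differed (17.9% lower). Cebpd was not called in that comparison (-0.42, adjusted p = 0.108). It passed without thapsigargin replicate 1 of the GCN2-deletion line (-0.54, adjusted p = 0.0371). The median difference over all genes tested was -0.13 as deposited and 0.02 after median-of-ratios rescaling, so the sizes depend on the scaling. The 7 genes still passed after rescaling, from -0.45 for Atf5 to -3.29 for Atf3.

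The thapsigargin effect in the GCN2-deletion line against that in WT depended on the scaling of the libraries. As deposited, 4 of the 8 genes were higher and 1 lower, where 14.2% of all genes tested differed (12.3% higher and 1.88% lower). The median difference over all genes tested was 0.13, and -0.04 after median-of-ratios rescaling. Atf5 (0.63 as deposited, 0.42 rescaled, adjusted p = 0.031) and Ddit3 (-0.30 as deposited, -0.51 rescaled, adjusted p = 0.00489) were called on both scales. Atf4 (0.21 as deposited, -0.01 rescaled, adjusted p = 0.975), Atf3 (0.67 and 0.44, adjusted p = 0.149) and Jdp2 (0.49 and 0.27, adjusted p = 0.128) lost their calls after rescaling. Set against untreated in place of DMSO cells, the Ddit3 difference was -0.13 (adjusted p = 0.253) and the Atf4 difference 0.08 (adjusted p = 0.348), and neither passed. Against that control Cebpb (0.72, adjusted p = 0.00456; 0.50 and adjusted p = 0.0705 against DMSO) and Cebpg (0.70, adjusted p = 0.00147; 0.42 and adjusted p = 0.0676 against DMSO) did pass.

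As deposited, the Atf4 difference also lost its call when any of 11 of the 12 libraries compared was left out (adjusted p up to 0.105), the Atf3 difference with any of 7 (up to 0.0827) and the Ddit3 difference with any of 6 (up to 0.0834). The count of genes called among the 8 ran from 2 to 6 over these fits. It was 2 without WT DMSO replicate 1 or 3 or WT thapsigargin replicate 2 or 3. It was 3 without DMSO replicate 1 or 3 or thapsigargin replicate 3 of the GCN2-deletion line.

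**Figure D3:**
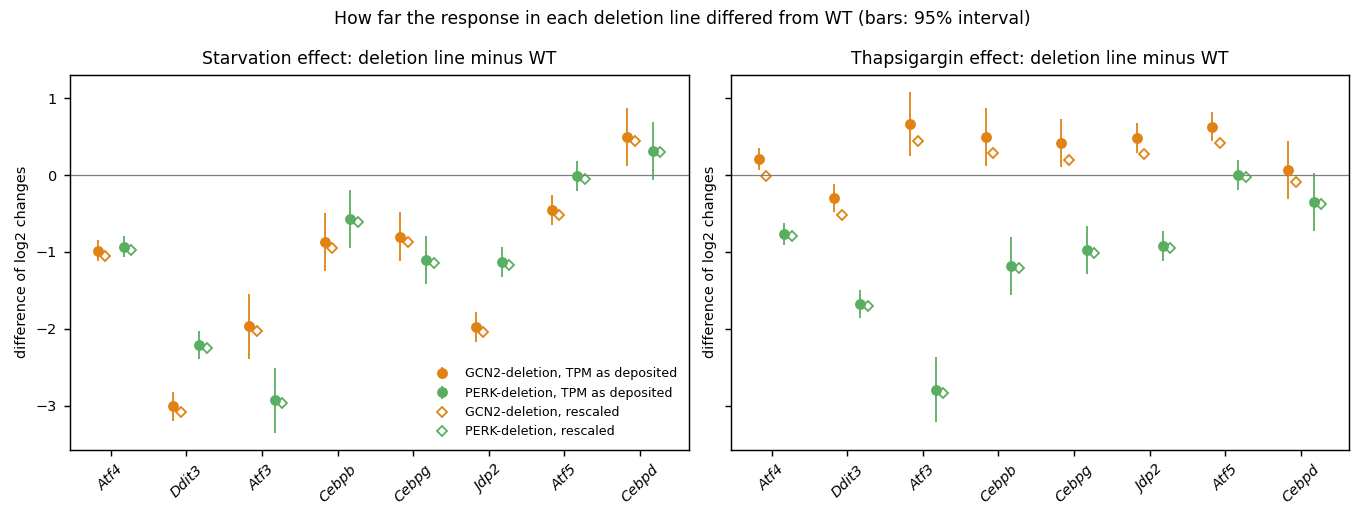
Difference of each stress effect between a deletion line and WT, on the log2 scale, for TPM as deposited (filled, with 95% intervals) and after median-of-ratios rescaling (open). For the thapsigargin effect in the GCN2-deletion line the rescaled points lie lower, with Atf4 at -0.01 in place of 0.21, and for the PERK-deletion line both lie together.

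The ratio of Ddit3 to Atf4 within a library does not depend on the scaling of the library. With thapsigargin, Ddit3 TPM was 50.9% ± 0.525 of Atf4 TPM in the GCN2-deletion line, 52.0% ± 0.789 in the PERK-deletion line and 60.4% ± 1.66 in WT (SD, n = 3 each). The deletion lines overlapped and all 3 WT libraries were higher. With DMSO the ratio was 11.6% ± 0.842, 15.8% ± 0.578 and 9.75% ± 0.222 in those lines. In starved cells it was 5.33% ± 0.243 in the GCN2-deletion line, 13.5% ± 0.703 in the PERK-deletion line and 23.4% ± 1.72 in WT, and in untreated cells 11.3% ± 0.523, 16.6% ± 1.43 and 11.7% ± 0.483. Starved WT cells had 1079 TPM of Atf4 and thapsigargin-treated PERK-deletion cells 516 TPM, yet the ratio was lower in the starved WT cells.

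The same ratio for Atf3 separated the lines with thapsigargin, at 9.30% ± 0.353 of Atf4 TPM in the GCN2-deletion line, 2.27% ± 0.192 in the PERK-deletion line and 8.02% ± 0.203 in WT. With DMSO, Atf3 was at 1.09% ± 0.169, 1.76% ± 0.27 and 1.49% ± 0.123 of Atf4 in those lines. Thapsigargin thus went with a Ddit3 to Atf4 ratio well above that with DMSO in all 3 lines, while the Atf3 ratio in the PERK-deletion line stood at 2.27% with thapsigargin and 1.76% with DMSO.

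In WT cells the signed log2 change with starvation was lower than that with thapsigargin for 4 of the 8 genes, where 11.8% of all genes tested differed between the effects (6.12% lower with starvation). Atf3, Atf4 and Ddit3 rose less with starvation, whereas Cebpd fell with starvation (-0.67) and did not pass with thapsigargin (0.06). Ddit3 differed most, by -2.01 (SE 0.0893, adjusted p = 6.62e-16), followed by Atf3 (-0.80, adjusted p = 0.00875), Cebpd (-0.73, adjusted p = 0.00786) and Atf4 (-0.38, adjusted p = 0.0002). Cebpg (0.20, 95% interval -0.12 to 0.51) and Jdp2 (0.09, -0.10 to 0.29) did not pass. With starved cells set against DMSO and thapsigargin against untreated cells, Cebpg did pass, at 0.48 (adjusted p = 0.0265). Cebpb (-0.54, adjusted p = 0.057) passed without WT DMSO replicate 2, untreated WT replicate 2 or WT thapsigargin replicate 3, at adjusted p down to 0.0287.

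Before any stress, most of these genes were already lower in the deletion lines than in WT. In untreated GCN2-deletion cells 6 of 8 were lower, where 44.4% of all genes tested differed from WT (23.2% lower). In untreated PERK-deletion cells 7 were lower and Jdp2 was higher, where 49.6% of all genes tested differed (18.5% lower and 31.1% higher). These backgrounds are high, and a difference between lines cannot be told apart from one between genotypes.

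Untreated Atf4 averaged 322 ± 5.74 TPM in the GCN2-deletion line (log2 difference from WT -0.79, adjusted p = 5.25e-14), 318 ± 21.6 TPM in the PERK-deletion line (-0.81, adjusted p = 3.11e-14) and 558 ± 22.4 TPM in WT. Atf5 averaged 53.6 ± 1.08, 29.1 ± 2.87 and 96.3 ± 8.31 TPM in those lines, and its difference of -1.69 in the PERK-deletion line (adjusted p = 2.3e-18) was the largest among the 8. Cebpb was at 11.9 ± 0.186, 11.7 ± 1.40 and 24.3 ± 2.05 TPM, close to each other in the deletion lines. Jdp2 was at 38.3 ± 0.941 TPM in the GCN2-deletion line (-0.08, adjusted p = 0.351), 62.5 ± 4.66 TPM in the PERK-deletion line (0.61, adjusted p = 1.22e-08) and 40.7 ± 2.41 TPM in WT (SD, n = 3 each). Compared in DMSO, the difference of Jdp2 between the GCN2-deletion line and WT was -0.25 and passed (adjusted p = 0.00326).

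The smaller differences were less stable. Atf3 in the PERK-deletion line (-0.35, adjusted p = 0.0452) lost its call without untreated replicate 1 or 3 of that line or untreated WT replicate 2 or 3 (adjusted p up to 0.228). Cebpg there (-0.39, adjusted p = 0.00371) lost it without untreated replicate 3 of that line (-0.26, adjusted p = 0.0513), and was -0.05 when the lines were compared in DMSO (adjusted p = 0.751). Ddit3 there was -0.31 untreated (adjusted p = 0.000192) and -0.10 in DMSO (adjusted p = 0.199). In the GCN2-deletion line Cebpg (-0.23, adjusted p = 0.0947) passed without untreated replicate 3 of that line (-0.31, adjusted p = 0.0386) or of WT (-0.30, adjusted p = 0.0391). DMSO itself changed none of the 8 genes in any line by limma's adjusted p, and 0.137% of all genes tested were called for it in the GCN2-deletion line, 0.236% in the PERK-deletion line and 0.0808% in WT. At an unadjusted p under 0.05, Atf4 and Ddit3 in WT, Atf5 in GCN2-deletion cells and Atf4 in PERK-deletion cells would pass.

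Over the 12 groups, mean Ddit3 TPM spanned 55.1-fold and Atf3 35.04-fold from the lowest to the highest group, and the other genes between 3.79-fold (Cebpg) and 6.16-fold (Cebpd). Thapsigargin-treated WT cells had the highest mean for Atf4, Ddit3, Atf3, Cebpb, Atf5 and Cebpd. For Cebpb, that group overlapped thapsigargin-treated GCN2-deletion cells, which overlapped starved WT cells. For Ddit3 the order in TPM as deposited was thapsigargin-treated WT, GCN2-deletion and PERK-deletion cells, followed by starved WT cells, each separate from the next. Median-of-ratios rescaling divides thapsigargin-treated PERK-deletion libraries by 1.08, 1.10 and 1.08 and starved WT libraries by 0.959, 0.945 and 0.967. The order and the separation of that pair of groups therefore depend on the scaling. For Jdp2, starved and thapsigargin-treated WT cells overlapped, and the 4 groups of the PERK-deletion line overlapped along the order between them and the remaining WT groups.

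As a description over the 12 group means of log2(TPM + 1), which share libraries and lines, the patterns of Atf4 and Cebpb were most alike (Pearson r = 0.964), followed by Atf4 and Atf3 (0.944). Atf4 and Ddit3 had an r of 0.896. Cebpd and Jdp2 were least alike (-0.11). Among 10397 other genes, the one most like Atf4 was Ccdc47 (0.980), most like Ddit3 Herpud1 (0.987), a gene of ER-associated degradation, and most like Atf3 Slc3a2 (0.983), the heavy chain of amino acid transporters. Those nearest to Cebpb, Cebpg, Jdp2, Atf5 and Cebpd were Eif2s2 (0.979), Usp36 (0.981), Cep162 (0.962), Ccl7 (0.975) and Plekhf1 (0.973).

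The lists of target genes and of other bZIP factor genes below were chosen with earlier results of these data known. Their counts beside all genes tested are therefore a description only. Genes known as targets of ATF4 or CHOP were described beside the factors, from a list of 30 that all passed the filter. In starved cells 1 rose and 15 fell in the GCN2-deletion line, 12 rose and 1 fell in the PERK-deletion line, and 29 rose and 1 fell in WT. The shares over all genes tested were 11.7%, 5.67% and 12.5% higher and 12.1%, 6.32% and 17.3% lower in those lines. The median log2 changes of the 30 genes were -0.24, 0.26 and 1.61, against 0.00, -0.02 and -0.05 for all genes tested. Chac1, a glutathione-degrading enzyme, and Trib3, a pseudokinase that binds ATF4, fell most in starved GCN2-deletion cells (-1.73 and -1.72). Slc7a11, the cystine transporter, rose most in starved PERK-deletion cells (1.38, adjusted p = 1.73e-06), in cells where Atf4 mRNA changed by 0.02. ATF4 protein was not measured, and the cause of this rise was not tested. In WT, Gadd45a (3.54) and Trib3 (3.39) rose most and Tnfrsf10b fell (-0.27).

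With thapsigargin, 29 of the 30 target genes rose in the GCN2-deletion line, 11 in the PERK-deletion line and 28 in WT, and none fell. The shares over all genes tested were 25.4%, 2.49% and 11.4% higher and 11.2%, 2.75% and 14.8% lower in those lines. The median log2 change of the target genes was 2.15 in the GCN2-deletion line, 0.29 in the PERK-deletion line and 1.499 in WT. Herpud1 rose in the PERK-deletion line by 2.89 (adjusted p = 5.16e-19) and in WT by 4.32 (adjusted p = 3.84e-23). Trib3 rose by 5.02 in the GCN2-deletion line, the most of the list. Ppp1r15a encodes GADD34, the phosphatase subunit that reverses eIF2alpha phosphorylation. It rose with thapsigargin by 2.85 in the GCN2-deletion line, 0.70 in the PERK-deletion line and 3.54 in WT, and with starvation by 2.54 in WT, while its starvation effect differed from WT by -2.55 in GCN2-deletion cells and -2.58 in PERK-deletion cells.

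Of 45 other bZIP factor genes, 35 passed the filter. Thapsigargin raised 21 and lowered 1 of these in the GCN2-deletion line, raised 4 and lowered 3 in the PERK-deletion line, and raised 10 and lowered 5 in WT. Of all genes tested, 25.4%, 2.49% and 11.4% were higher in those lines and 11.2%, 2.75% and 14.8% lower. Xbp1, a factor of another ER stress branch, rose by 2.39, 2.30 and 2.60 in those lines. In the PERK-deletion line it thus changed by about as much as Ddit3 (2.27). Set against untreated cells, DMSO lowered Xbp1 in the GCN2-deletion line (-0.54, limma adjusted p = 0.000792) and in WT (-0.57, adjusted p = 0.00162). The rise over DMSO in those 2 lines is therefore larger than a rise over untreated cells. Nfil3, a bZIP repressor, rose by 2.62 in the GCN2-deletion line and 2.15 in WT. Its effect in the PERK-deletion line differed from that in WT by -1.41 (adjusted p = 5.69e-10). Starvation raised 10 and lowered 7 in the GCN2-deletion line, raised 7 and lowered 6 in the PERK-deletion line, and raised 16 and lowered 6 in WT. For starvation the shares over all genes tested were 11.7%, 5.67% and 12.5% higher and 12.1%, 6.32% and 17.3% lower, so that 6 of 35 lowered in WT is near the background. Fosb, a partner of Jun, rose by 1.89 in starved GCN2-deletion cells and 1.52 in starved PERK-deletion cells, with an effect higher than in WT by 1.39 (adjusted p = 3.29e-05) and 1.03 (adjusted p = 0.0012). That was the reverse of Ddit3, whose effect was lower than in WT in both.

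**Figure D4:**
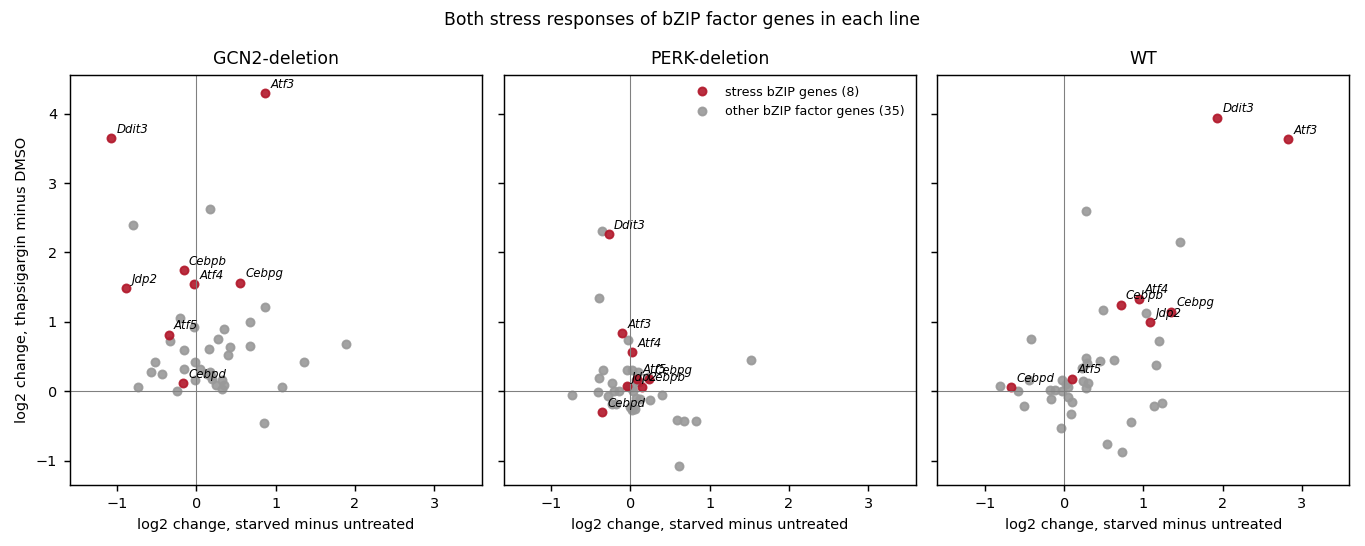
Log2 change with starvation (horizontal) against log2 change with thapsigargin (vertical) for the 8 stress bZIP genes (red) and 35 other bZIP factor genes (grey), 1 panel per line. In WT 7 of the 8 genes lie in the upper right, all but Cebpd; in the GCN2-deletion line Ddit3 (-1.08 with starvation, 3.65 with thapsigargin) and Jdp2 lie in the upper left; in the PERK-deletion line Ddit3 and Xbp1 lie apart at the top.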

How the data were processed

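Total RNA was extracted with Trizol and made into stranded libraries, per the labels' protocols. Per the submitters' processing notes, FastQC, kallisto and the mm10 reference were used, with no versions given. The authors deposited TPM per gene symbol, with 0 duplicate symbols and 0 per-sample columns left unused here. TPM keeps no read depth, so no counting interval was possible.

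From these values log2(TPM + 1) was computed, with a pseudocount of 1, and the 16083 genes that reached 1 TPM or more in no fewer than 3 libraries entered the test. Group means of the 12 groups were fitted with limma 3.58.1 in R 4.3.3 (trended, robust variances, 24 residual degrees of freedom), giving 18 comparisons. P-values were adjusted by Benjamini-Hochberg over all genes tested in a comparison and called under 0.05. The script was tested on simulated data. Standard errors (SE) and changes are on the log2(TPM + 1) scale, which understates changes of low genes such as Cebpd. A BLAST 2.17.0 search at 90% identity over 200 bases found no other gene matching the members beyond the overlaps with Tmem189 and Spidr. Plots used matplotlib 3.10.9 under Python 3.11.15.

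Named genes were the 8 members, Eif2ak4 and Eif2ak3, the gene most like each member by Pearson r (group mean of at least 5 TPM), and up to 2 genes a list that rose or fell most. Members, lists and tests were chosen with earlier results of these data known. Alternatives were the other control for each stress, a pseudocount of 0.1, no filter or 5 TPM, median-of-ratios rescaling, removal of Mir and Snor symbols, untrended variances, compared groups only, a replicate block, removal of 2 libraries with over 2% of TPM on Mir symbols, and leaving out each library.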

Additional observations from a re-analysis of the deposited data

Results flagged for a closer look

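The results below were picked out because a stress effect differed between lines by a direct test of that difference (limma, adjusted p under 0.05). No explanation was tested, and within each stress the comparisons share libraries. Some of the calls were lost with another scaling, another control or a library left out, as given above. For starvation, the effect in the GCN2-deletion line minus that in WT was -0.98 for Atf4, -0.45 for Atf5, -1.97 for Atf3, -3.01 for Ddit3, -0.87 for Cebpb, -0.80 for Cebpg and -1.97 for Jdp2. The effect in the PERK-deletion line minus that in WT was -0.93 for Atf4, -2.93 for Atf3, -2.21 for Ddit3, -0.57 for Cebpb, -1.11 for Cebpg and -1.13 for Jdp2. Between the deletion lines, PERK minus GCN2, it was 0.44 for Atf5, -0.97 for Atf3, 0.81 for Ddit3 and 0.84 for Jdp2.

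For thapsigargin, the effect in the GCN2-deletion line minus that in WT was 0.21 for Atf4, 0.63 for Atf5, 0.67 for Atf3, -0.30 for Ddit3 and 0.49 for Jdp2. In the PERK-deletion line minus WT it was -0.77 for Atf4, -2.79 for Atf3, -1.68 for Ddit3, -1.18 for Cebpb, -0.98 for Cebpg and -0.92 for Jdp2. Between the deletion lines, PERK minus GCN2, it was -0.98 for Atf4, -0.63 for Atf5, -3.46 for Atf3 and -1.38 for Ddit3. For Cebpb, Cebpg and Jdp2 it was -1.68, -1.39 and -1.41. Median-of-ratios rescaling removed the calls of Atf4 (-0.01), Atf3 (0.44) and Jdp2 (0.27) for the GCN2-deletion line minus WT. As deposited, that Atf4 call was lost when any of 11 of the 12 libraries compared was left out.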

How the results depend on the processing

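Over the alternatives other than leaving out a library, 1354 recomputed member values kept their direction and side of the threshold, 33 lost a call, 10 gained one and 1 reversed: the Atf4 thapsigargin effect in the GCN2-deletion line minus WT, at -0.00833 after median-of-ratios rescaling. Leaving out libraries lost 41 calls, gained 13 and kept 1146. Causes were not tested, except that fitting the compared groups alone leaves fewer samples. Replicates are technical and 1 line stands for each genotype, so limits of biological spread cannot be given, and TPM carries no depth.

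Counts of the 8 genes called moved as follows. Thapsigargin in the PERK-deletion line went with 6 against the other control (3 as reported). Starvation in the PERK-deletion line gave 2 with a pseudocount of 0.1, 2 after rescaling and 0 with the compared groups only (1 as reported; 1 to 2 leaving out a library). The thapsigargin difference GCN2-deletion minus WT gave 2 with no filter, 2 after rescaling and 3 with compared groups only (5 as reported; 2 to 6 leaving out a library). The starvation difference between deletion lines gave 2 with compared groups only (4 as reported).

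Counts over all genes tested also moved. Against the other control, genes called were 1514 for thapsigargin in the PERK-deletion line, 355 for the starvation difference between deletion lines, 5709 and 3205 for the thapsigargin differences of the GCN2-deletion and PERK-deletion lines from WT, and 3440 for starvation against thapsigargin in WT. Fitting compared groups only gave 282 for starvation in the PERK-deletion line and 2191 in WT, 780, 687 and 192 for the starvation differences (GCN2-deletion and PERK-deletion minus WT, and between them), 1437 for the thapsigargin difference of the GCN2-deletion line, 1236 for starvation against thapsigargin, and 4326 and 4683 for the untreated GCN2-deletion and PERK-deletion lines against WT. Rescaling gave 1076 for the starvation difference between deletion lines.

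For DMSO against untreated, rescaling gave 62 genes in the GCN2-deletion line, 61 in the PERK-deletion line and 60 in WT, and compared groups only gave 3, 13 and 2. The PERK-deletion line had 23 with a pseudocount of 0.1 and 79 with no filter. WT had 27 with no filter, 21 without Mir and Snor symbols, 20 with untrended variances and 131 without the libraries of over 2% Mir.

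Leaving out a library, genes called for DMSO ran from 11 to 24 in the GCN2-deletion line, 11 to 42 in the PERK-deletion line and 2 to 1467 in WT, the last without untreated replicate 3. The starvation difference ran from 1002 to 1878 for the GCN2-deletion line minus WT and 417 to 750 between deletion lines, and the thapsigargin difference of the GCN2-deletion line minus WT from 1131 to 3053.

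Replicate numbers did not pair the libraries: the median correlation of deviations between libraries of the same number was 0.00105, over 0.1 in 6 of 198 pairs, and 12 of 36 libraries correlated best with their own number. With a replicate block the 1 call lost was Cebpb, starvation effect in the PERK-deletion line minus WT (-0.57, adjusted p = 0.0539), which left 5 of 8 called there.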
